A study of Caenorhabditis elegans with 4 samples.

Results

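The regions described here are the PHA-4 binding peaks on chromosome II of the nematode Caenorhabditis elegans in late embryos. They are all rows that the deposited peak list places on chromosome II, which gave 1562 of 9165 peaks. The rule used position only, and no score or width entered it. Chromosome II is one of 5 autosomes, and chromosomes I, III, IV and V served for comparison.

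PHA-4 is the worm's FoxA transcription factor, a forkhead protein that is required to specify the cells of the pharynx, the muscular feeding organ, and is also made in the gut. FoxA proteins can bind their sites in closed chromatin, and in the embryo PHA-4 binds near many genes that are switched on in the pharynx. Worm autosomes have no localised centromere. Their central parts recombine little and are rich in widely expressed genes, whereas the outer parts, called arms, recombine often, hold more repeats and tend to lie at the nuclear periphery.

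The study used chromatin immunoprecipitation followed by sequencing (ChIP-seq) on 2 ChIP libraries, pulled down with an affinity-purified goat antibody against green fluorescent protein (GFP), and 2 input libraries of chromatin DNA that was not precipitated, with replicate numbers 1 and 2 in each group. All 4 came from hermaphrodite late embryos of strain OP37, grown at 20 °C. Every animal carried the unc-119(ed3) allele and the transgene wgIs37, made by bombardment, which holds a rescuing unc-119(+) copy together with pha-4::TY1::EGFP::3xFLAG. The peaks therefore mark the tagged protein made from a transgene, and no untagged strain was analysed here. Whether the replicates are separate cultures is not stated in the labels.

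The list was combined over the replicates and gives the position and the q-value of each peak, without tag counts or values per library. Depth and replicate error are therefore unknown, no test between samples could be made, and all comparisons below are descriptions. Coordinates are 1-based positions on the WormBase WS180 build. A lower q-value is a better score. The q-values are the authors' own and are used to order and sort peaks of this list, nothing more. Intervals in parentheses are exact 95% intervals for counting error. They treat peaks as independent, and since counts on chromosome II varied 3.34 times more between blocks of about 100 kb than independent placement gives (variance over mean), they are too narrow. Genes, sequences and the FoxA motif at these positions were not analysed here, because no genome or annotation of WS180 was used.

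Peaks on chromosome II spanned positions 153 to 15271994 and covered 549 kb, or 3.60% of that span. Their density was 102 per Mb (97.3 to 107), against 87.9 per Mb (85.7 to 90.2) on the other 4 autosomes pooled, a ratio of 1.16 (1.10 to 1.23). The pooled ratio rested on chromosome V, without which it was 1.01 (0.957 to 1.07). Taken singly, chromosome II stood at 1.73 times the density of V (1.60 to 1.87) and 1.14 times that of IV (1.06 to 1.22). It stood at 0.880 times that of III (0.820 to 0.944), while its ratio to I was 1.02 (0.953 to 1.10), an interval that includes 1.

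The 3 parts of chromosome II, each 33.3% of the span, differed from one another. Here left arm, centre and right arm name these equal parts. They are not mapped recombination domains, whose borders were not used. The left arm, from 153 to 5090766, held 360 peaks or 70.7 per Mb (63.6 to 78.4). The centre, from 5090767 to 10181380, held 682 peaks or 134 per Mb (124 to 144). The right arm, from 10181381 to 15271994, held 520 peaks or 102 per Mb (93.6 to 111). These amounted to 23.0% (21.0 to 25.2), 43.7% (41.2 to 46.2) and 33.3% (31.0 to 35.7) of the chromosome's peaks. The right arm as cut here thus held the share that an even spread would give it. That share depends on the cut, which joined windows of about 1 Mb with 113 and 117 peaks per Mb to windows with 80.5 to 105. Blocks of about 100 kb held 7.06 ± 4.61 peaks in the left arm, 13.4 ± 5.96 in the centre and 10.2 ± 5.16 in the right arm (mean ± SD over 51 blocks each).

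The arms of chromosome II were unequal in a way that differed between autosomes. The left arm had 0.692 times the density of the right arm (0.604 to 0.793). The same ratio was 0.896 on III (0.788 to 1.02) and 1.05 on I (0.915 to 1.20), and it ran the other way on IV (1.31, 1.15 to 1.50) and V (1.30, 1.11 to 1.52). The centre of II had 1.89 times the density of its left arm (1.66 to 2.16) and 1.31 times that of its right arm (1.17 to 1.47). Set against the same parts of I, III, IV and V pooled, the left arm of II stood at 0.866 (0.772 to 0.971), its centre at 1.23 (1.13 to 1.34) and its right arm at 1.39 (1.26 to 1.54). Without chromosome V, a comparison added after the values were seen, these ratios were 0.751 (0.667 to 0.843), 1.11 (1.02 to 1.21) and 1.16 (1.05 to 1.29). The left arm, centre and right arm of III had higher densities than those of II, with 99.7, 138 and 111 peaks per Mb, though the intervals for the centre and the right arm overlapped. No test of these differences between chromosomes was made, since each autosome gives only 1 value.

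**Figure D1:**
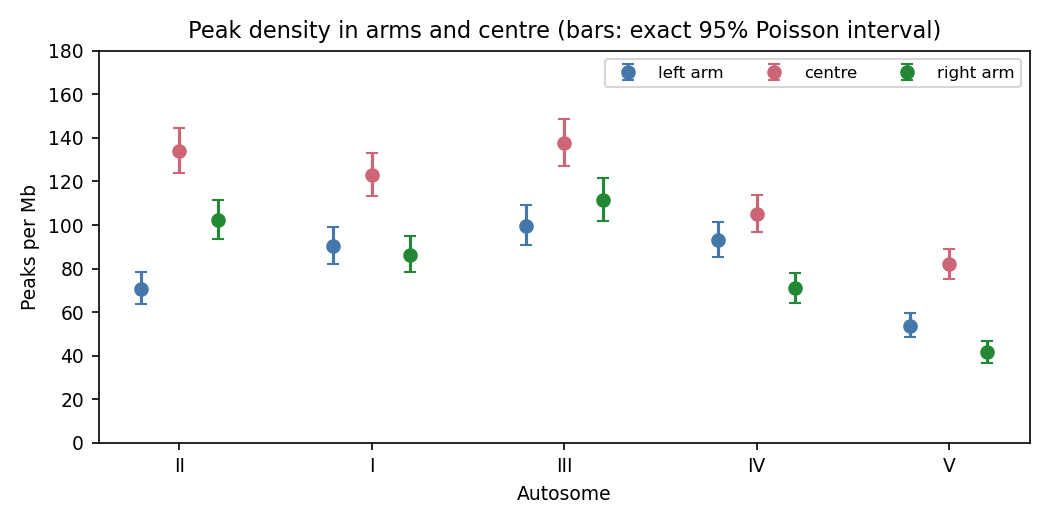
Peaks per Mb (vertical axis) in the left arm, centre and right arm of each autosome, each part 33.3% of the span, with exact 95% Poisson intervals for counting error as bars. On chromosome II the left arm is lowest (70.7), the centre highest (134) and the right arm between them (102), while on IV and V the left arm lies above the right arm.

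A finer view in 15 windows of about 1 Mb showed that density on the left changed before the border of the left arm as cut here. That border was set by length alone, so the offset says nothing about recombination domains. The first window had 85.5 peaks per Mb (68.4 to 105). Windows 2 to 4, from 1018276 to 4072644, held 163 peaks or 53.4 per Mb (45.5 to 62.2), with single windows at 42.2 to 59.9. The fifth window, still within the left arm, was at 108 per Mb (88.8 to 130). From there to the twelfth window, between 4072645 and 12217626, every window held 108 to 162 peaks per Mb, and the stretch as a whole held 1026 peaks or 126 per Mb (118 to 134). The last 3 windows held 80.5 to 105 per Mb. These stretches were pooled after their counts had been seen.

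In the sparse windows 2 to 4 the median width was 263 bp and the median −log10 of the q-value 5.27, against 300.0 bp and 6.35 in windows 5 to 12. Peaks covered 1.60% of the sparse windows and 4.61% of windows 5 to 12. The ratio of the fullest to the emptiest window was 3.84 on chromosome II, beside 2.06 on I, 2.27 on III, 3.47 on IV and 9.82 on V.

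**Figure D2:**
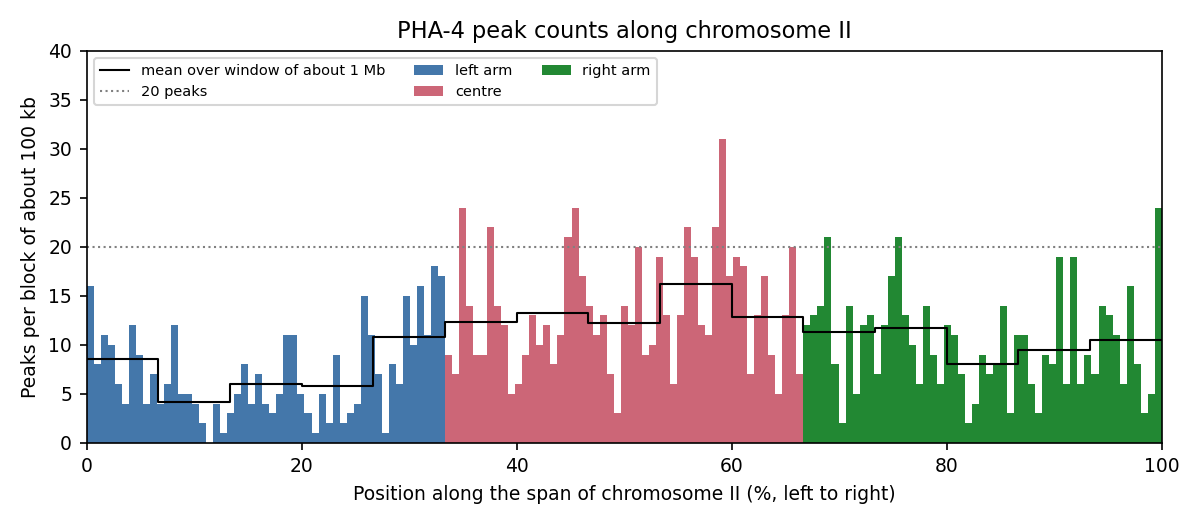
Number of peaks in each of 153 blocks of about 100 kb (vertical axis) by position along the span of chromosome II in percent (horizontal axis), coloured by part, with the mean over windows of about 1 Mb as a black line and 20 peaks as a dotted line. The low stretch lies inside the left arm, 9 of the 12 blocks with 20 or more peaks lie in the centre, and the last block at the right end holds 24.

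Long stretches without any peak were concentrated on the left. Chromosome II had 37 gaps of more than 50 kb between neighbouring peaks, of which 22 began in the left arm, 6 in the centre and 9 in the right arm. Together they took up 17.7% of the span, beside 13.3% on I, 11.9% on III, 26.1% on IV and 41.1% on V. Of the 5 longest, 4 were in the left arm. The longest ran from 1664064 to 1820026 (156 kb), and the others there ran from 960617 to 1084885 (124 kb), from 3567930 to 3681831 (114 kb) and from 1892778 to 1995825 (103 kb). The exception lay in the centre, from 5941084 to 6045284 (104 kb), inside the dense part of the chromosome.

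Of the 153 blocks of about 100 kb on chromosome II, 12 held 20 or more peaks (7.84%, 4.12 to 13.3), beside 9 of 137 on III (6.57%), 6 of 150 on I, 4 of 174 on IV and 0 of 209 on V. The interval of chromosome II includes the share of III. The 12 blocks held 272 peaks, or 17.4% of those on the chromosome. Of these blocks, 9 were in the centre, 3 in the right arm and 0 in the left arm, where the fullest block had 18 peaks. At the other extreme, 9 blocks of chromosome II held at most 2 peaks, and 1 of them, in the left arm, was empty.

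The dense blocks of the centre included 2 adjoining pairs. The pair from 8883774 to 9083405 held 53 peaks. Its second block, from 8983590 onwards, had 31, the highest count of any block in the genome, and 9 of these had a q-value below 1e-10 (the background, or share of all 9165 peaks, was 32.2%). Its best peak, at 9059897 to 9062653, had a q-value of 1.38e-132 and a width of 2757 bp. The pair from 6787639 to 6987270 held 45 peaks, and peaks covered 15.1% of it. In its first block alone they covered 19.2% and had a median width of 638 bp, the widest of the 12 dense blocks.

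The other dense blocks of the centre differed in score. The block from 5290399 to 5390214 held 24 peaks. Their median q-value was 5.64e-13, and 7 belonged to the best-scoring 10% of the list (background 9.99%). In contrast, the block from 5689663 to 5789478 held 22 peaks whose median q-value was 4.13e-05, with 8 narrower than 200 bp (background 19.2%) and 1 in the best-scoring 10%. The blocks from 8484510 to 8584325 (22 peaks, median q-value 3.69e-07), from 7785798 to 7885613 (20 peaks, 5.50e-10) and from 9981750 to 10081565 (20 peaks, 3.06e-07) lay between these. In the right arm, blocks from 10480829 to 10580644 and from 11478989 to 11578804 each held 21 peaks, with median q-values of 1.96e-11 and 1.04e-07.

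In the dense blocks 99 of 272 peaks (36.4%) had a q-value below 1e-10, against 422 of 1290 peaks (32.7%) on the rest of chromosome II, with a background of 32.2% in the whole list. The median −log10 q-value was 7.12 in the dense blocks, against 5.90 on the rest of the chromosome, and the median width 317 bp, against 288 bp. Within single dense blocks the median distance between neighbouring midpoints was 1251 to 3864 bp. The blocks were picked for their counts, so short distances in them are part of the choice.

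The right end of chromosome II was dense over a short length only. The last 100 kb held 24 peaks, which was 2.35 times the density of the chromosome (1.51 to 3.48). Over the last 500 kb the ratio was 1.10 (0.831 to 1.41) and over the last 1 Mb, with 107 peaks, 1.05 (0.862 to 1.26). The first 100 kb, at the left end, held 16 peaks (1.56 times, 0.896 to 2.53). At the right ends of the other autosomes the last 100 kb held 23 peaks on III, 20 on I, 11 on IV and 10 on V, and at their left ends 6 to 15. Relative to their own chromosomes, these right ends had 1.98 times the density on III (1.26 to 2.96) and 2.00 times on I (1.23 to 3.08). The ratio was 1.23 on IV (0.614 to 2.19) and 1.69 on V (0.813 to 3.10). A dense last 100 kb was therefore not particular to chromosome II.

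The 24 peaks at the right end formed 2 groups, with 22.7 kb between them that held no peak. The first 16 lay between 15173115 and 15233043, and the best of them had a q-value of 3.62e-19. The other 8 lay between 15255728 and 15271994, the last base of the list on this chromosome, and included the best peak of the block, at 15262870 to 15263573 (q-value 4.50e-59, 704 bp). The outermost 3 peaks scored poorly, with q-values of 0.00326 to 0.00647. In all, 8 of the 24 had a q-value below 1e-10 (background 32.2%), 1 was in the best-scoring 10% (background 9.99%), and 7 were narrower than 200 bp (background 19.2%). The share below 1e-10 was thus near that of the list.

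**Figure D3:**
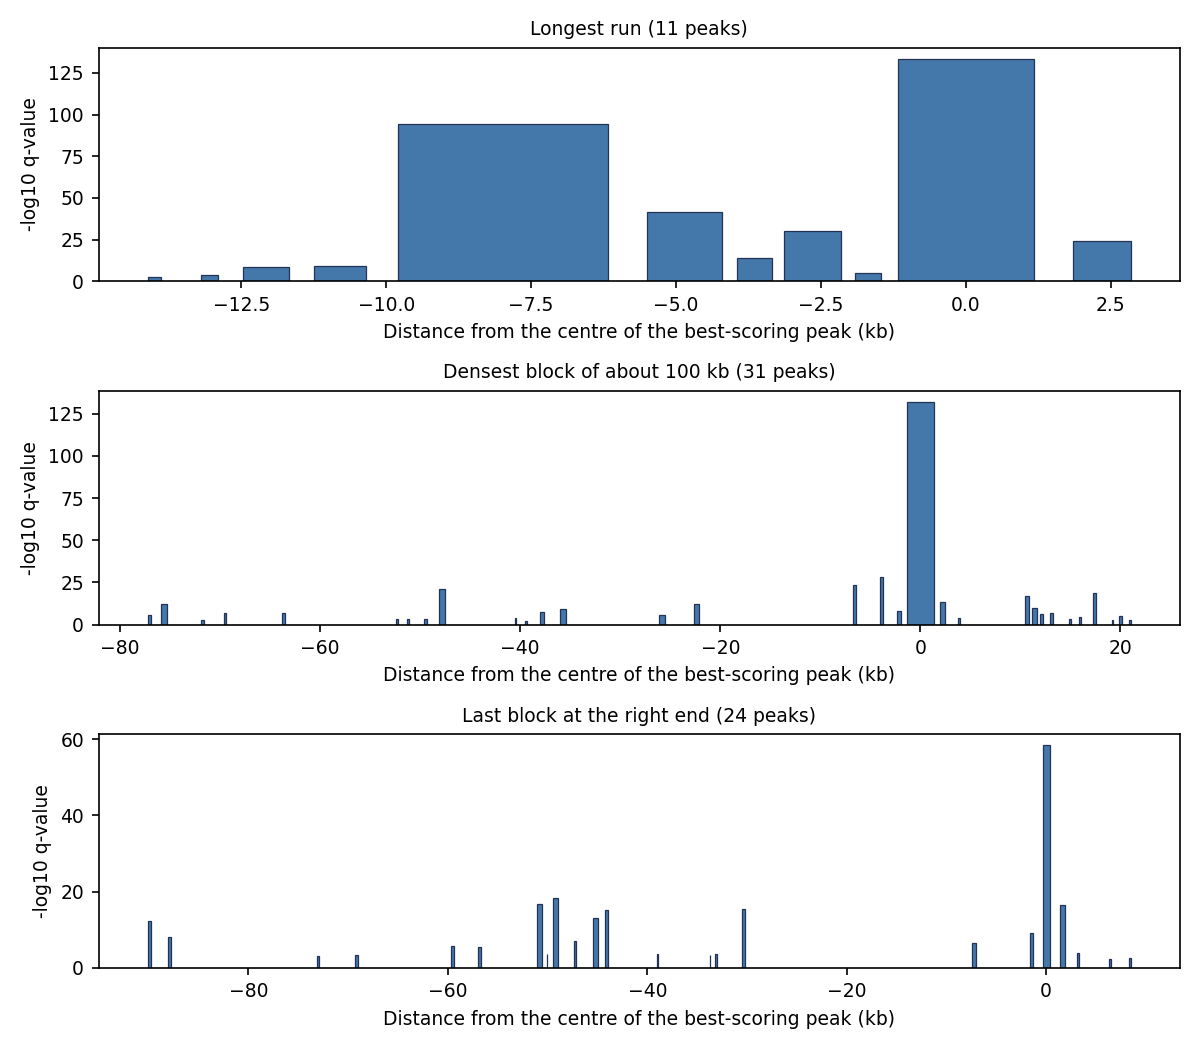
Score of each peak (−log10 of the q-value, vertical axis) against the distance in kb from the centre of the best-scoring peak of the stretch (horizontal axis), with bar width equal to peak width. The top panel shows the longest run with 11 peaks, led by a pair of broad peaks, the middle panel the block with 31 peaks around a single leading peak, and the bottom panel the last block of chromosome II with 24 peaks in 2 groups.

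The leading peak of chromosome II, in the right arm from 11633774 to 11636221, had a q-value of 3.11e-222 and was 2448 bp wide. It ranked second in the whole list, and the next peaks of chromosome II followed only at ranks 19 to 21. Those were at 6835284 to 6837636 in the centre (q-value 3.87e-134, 2353 bp), at 9059897 to 9062653 in the centre (1.38e-132, described above) and at 14249386 to 14251946 in the right arm (1.97e-131). The last of these, at 2561 bp, was the widest peak of the right arm. The fifth, at 3958151 to 3959369, was the only one of the 10 best peaks of the chromosome in the left arm (2.98e-101, 1219 bp).

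Ranks 6 to 10 on the chromosome had q-values from 1.40e-99 to 2.74e-95. Of these, 3 were in the right arm, at 11748679 to 11750310 (1632 bp), 10548579 to 10549803 (1225 bp) and 13334934 to 13335932 (999 bp). The remaining 2 were in the centre, at 5844477 to 5845238 (762 bp) and 6826657 to 6830292 (3636 bp). The last of these was the widest peak on the chromosome. The 10 best peaks thus fell 5 in the right arm, 4 in the centre and 1 in the left arm. These parts held 33.3%, 43.7% and 23.0% of all peaks on the chromosome, and 10 peaks are too few to set the split apart from those shares.

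Leading peaks had close neighbours. Among the 10 best, 8 had another peak within 1000 bases of their edge, against 598 of all 1562 peaks on chromosome II. They had a median of 5 other peaks within 10 kb of their midpoint, against 3 for all peaks of the chromosome. The ninth, at 5844477 to 5845238, lay 4947 bases from the nearest peak and 27587 bases from the next on its other side. Whether such neighbours belong to the same enriched region was not tested.

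The best peaks of the left arm scored lower than those of the other parts. After the one at 3958151, its next best were at 2454606 to 2455629 (q-value 2.22e-87, 1024 bp) and 4376529 to 4377243 (6.52e-59, 715 bp). Its widest peak, at 4881772 to 4883934, measured 2163 bp (q-value 1.54e-57). The left arm had 4 peaks with a q-value below 1e-50, against 17 in the centre and 15 in the right arm. As shares these were 1.11% (0.304 to 2.82), 2.49% (1.46 to 3.96) and 2.88% (1.62 to 4.71) of the peaks in each part. The share was 2.30% for chromosome II, with a background of 2.32% in the whole list. All 3 intervals include the background, so by this share the left arm was not told apart from the list.

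Over the whole chromosome the scores of chromosome II were close to those of the list. Of its 1562 peaks, 521 (33.4%, 31.0 to 35.8) had a q-value below 1e-10, where the background was 32.2% and the other 4 autosomes ranged from 29.2% on V to 34.5% on III. The best-scoring 10% of the list held 163 peaks of chromosome II (10.4%, 8.96 to 12.1), where the background was 9.99%. By part, 26 of 360 peaks in the left arm (7.22%), 76 of 682 in the centre (11.1%) and 61 of 520 in the right arm (11.7%) belonged to that class. The median −log10 q-value was 5.42 in the left arm, 6.26 in the centre and 6.51 in the right arm. Among the 100 best peaks of the list, 16 were on chromosome II, 20 on III, 15 on I, 14 on IV and 8 on V, with 27 on the X chromosome. In the same order, these chromosomes held 1562, 1598, 1496, 1563, 1235 and 1711 of all 9165 peaks. The 16 were thus near the part of the list that chromosome II makes up.

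The median peak width on chromosome II was 294 bp (285 to 303), with an upper quartile of 418 bp, against 309 bp (305 to 313) on I, III, IV and V pooled. The median was 287.5 bp on III, 308 bp on IV, 309 bp on I and 339 bp on V. Within chromosome II it was 283 bp in the left arm (263 to 298), 293.5 bp in the centre (285 to 308) and 307 bp in the right arm (285 to 321), so the intervals of the 3 parts overlapped.

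Both tails of the width distribution were examined. Peaks narrower than 200 bp numbered 376 or 24.1% (22.0 to 26.3), where the background was 19.2% and the other autosomes had 25.1% on III, 20.2% on IV, 19.8% on I and 11.4% on V. Scores of the narrow peaks were poor (median q-value 0.00196), and none was better than 7.24e-07. They included 31 peaks of fewer than 10 bp, or 1.98% of the peaks of chromosome II (1.35 to 2.81), beside 1.15% on I, III, IV and V pooled and 1.20% in the whole list. Singly, the share was 1.44% on III, 1.34% on I, 1.02% on IV and 0.729% on V, and the interval of chromosome II includes the value of III. The narrowest was 1 bp wide. Of the 376 narrow peaks, 128 (34.0%) had a neighbour within 1000 bases, against 470 of the 1186 peaks of at least 200 bp (39.6%).

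Broad peaks of more than 1000 bp numbered 45 on chromosome II, or 2.88% (2.11 to 3.84), where the background was 3.08%. They lay mainly in the centre, with 4 in the left arm (1.11% of its peaks), 27 in the centre (3.96%) and 14 in the right arm (2.69%). Together they covered 71020 bp. Width and score moved together on chromosome II, with Spearman's rho of 0.81 across its 1562 peaks and 0.79, 0.82 and 0.81 in the left arm, the centre and the right arm. These are correlations across peaks of 1 list, which are not replicates, and they are given as descriptions.

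**Figure D4:**
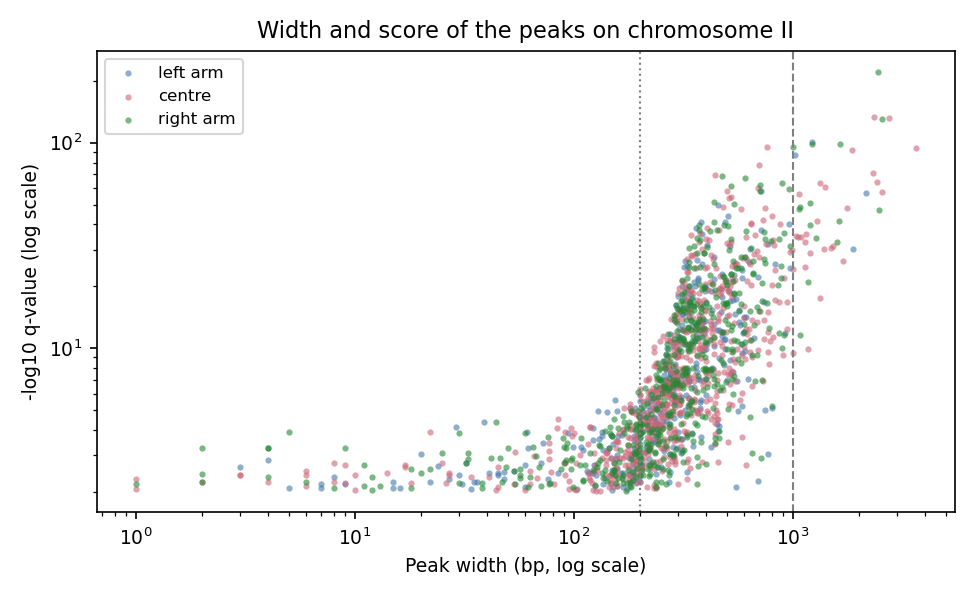
Score (−log10 of the q-value, log scale) against width in bp (log scale) for the 1562 peaks of chromosome II, 1 point per peak, coloured by part, with lines at 200 bp (dotted) and 1000 bp (dashed). Peaks narrower than 200 bp stay at poor scores, and the 45 peaks beyond 1000 bp include the leading one at 2448 bp.

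The median spacing on chromosome II lay within the range of the other autosomes. The median distance between midpoints was 4206 bp (3778 to 4564), against 4796.5 bp (4524 to 5139) on the other 4 autosomes pooled. The medians of IV (3989 bp) and III (4070 bp) were shorter, and those of I (5248 bp) and V (6718 bp) longer. Of the 1561 distances on chromosome II, 863 (55.3%, 52.8 to 57.8) were under 5 kb and 203 (13.0%, 11.4 to 14.8) under 1 kb. The share under 5 kb was 54.4% on III, 54.4% on IV, 49.1% on I and 43.3% on V. The share under 1 kb was 12.7% on IV, 11.0% on III, 10.2% on I and 7.94% on V. Both shares were highest on chromosome II, though its intervals include the values of IV. Long distances of 30 kb or more made up 8.58% on chromosome II, beside 5.26% on III, 6.69% on I, 9.67% on IV and 16.4% on V.

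Spacing followed density within the chromosome. The median distance was 5382 bp in the left arm (4266 to 6855), 3606 bp in the centre (3134 to 4208) and 4244 bp in the right arm (3590 to 5032). Close pairs were nonetheless present in the sparse arm, where 49.3% of distances were under 5 kb and 14.8% were 30 kb or more. In the centre these shares were 59.5% and 4.55%, and in the right arm 54.1% and 9.63%. Peaks with no other peak within 10 kb of their edges numbered 156 (9.99%), beside 8.51% on III, 10.8% on I, 11.2% on IV and 18.9% on V. Within chromosome II they made up 14.4% of peaks in the left arm, 6.45% in the centre and 11.5% in the right arm.

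**Figure D5:**
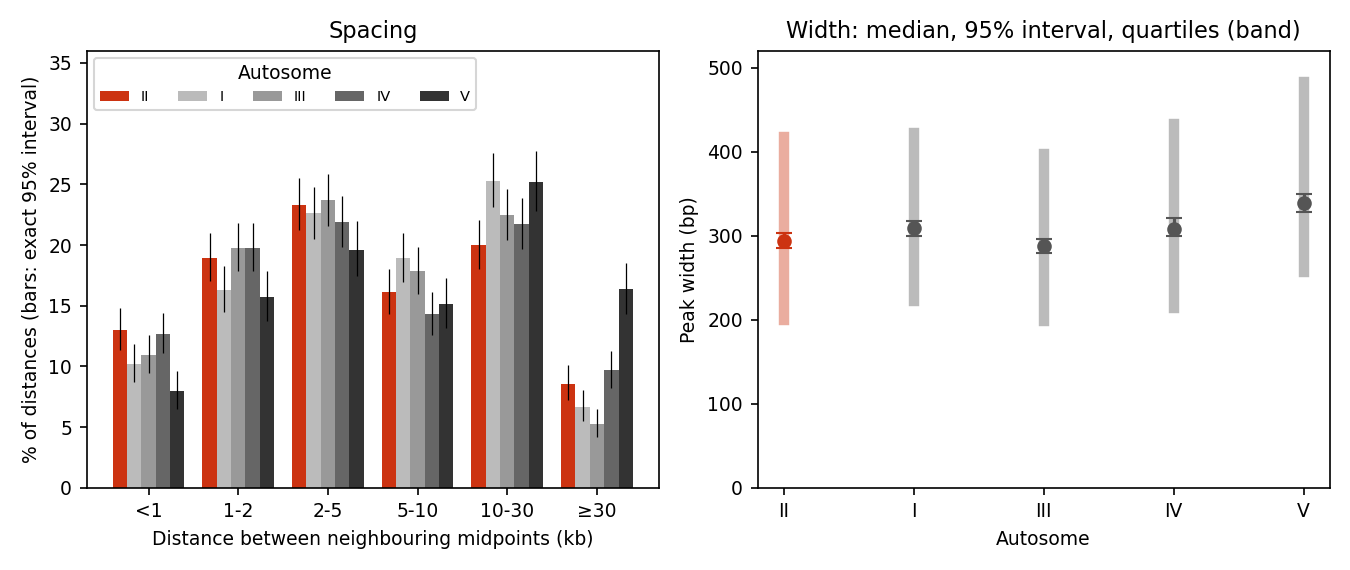
Left, percent of distances between neighbouring midpoints in 6 classes of distance in kb, for chromosome II and the other autosomes, with exact 95% intervals as bars. Right, median peak width in bp with its exact 95% interval and the quartiles as a band. Chromosome II has 13.0% of distances under 1 kb, the highest of the 5 autosomes though close to the 12.7% of IV, and a median width of 294 bp, which lies below I, IV and V and above III.

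Runs of peaks separated by at most 1000 bases held 598 peaks of chromosome II (38.3%), in 233 runs of 2 or more. The share was 39.3% on IV, 34.9% on III, 32.0% on I and 30.1% on V. Chromosome II had 11 runs of 5 or more peaks, beside 7 each on I and III and 5 each on IV and V. Of the 11, 6 were in the centre and 5 in the left arm, while the right arm, with a higher density than the left, held 0. Short distances did not set the arms apart. Those under 1 kb made up 11.98% in the left arm (8.81 to 15.8) and 11.2% in the right arm (8.6 to 14.2). Those of 1 to 2 kb made up 17.5% and 18.9%. The contrast between the arms thus rests on 5 runs and on the limit of 5 peaks.

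The longest run of the 5 autosomes lay in the centre of chromosome II, from 6822347 to 6839304, with 11 peaks that covered 12512 of 16958 bp (73.8%). It contained the second and the tenth best peaks of the chromosome, at 6835284 and 6826657, and 4 of its peaks were in the best-scoring 10% of the list. A run of 9 peaks from 6939852 to 6947724 scored lower, with 7.55e-18 as its best q-value and 1.17e-05 as its median. The runs of 7 peaks, from 7808990 to 7816530 and from 8124814 to 8132018, had best q-values of 1.71e-33 and 9.91e-49. The remaining runs of the centre, from 5331778 to 5338741 and from 8896492 to 8901354, had 5 peaks each.

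In the left arm the run around the leading peak, from 3956860 to 3960656, had 5 peaks, with 1.60e-06 as the median q-value over all 5. A run of 6 peaks from 4572103 to 4577875 had no peak better than 1.31e-12. The other 3, each of 5 peaks, lay from 77244 to 81534, from 713474 to 716873 and from 4779697 to 4784160, with best q-values of 1.82e-18, 7.93e-15 and 5.13e-32. The first of these is the closest to a chromosome end. No 2 neighbouring peaks on chromosome II were separated by fewer than 200 bases, which was also the smallest gap in the whole list.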

How the data were processed

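One list of peaks was analysed, for 2 ChIP and 2 input libraries. Per the file headers, the authors called peaks with PeakSeq on WormBase WS180. The deposited q-value of each peak is the caller's, was at most 0.00997, and was identical in both columns that hold it for all 9165 peaks. What aligner, versions and pooling were used is not given in the sources used here. Depth per library is unknown.

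Width was end minus start plus 1, and peaks were placed by midpoint. The span from first peak start to last peak end stood in for chromosome length, which raises densities slightly. Spans were cut into 3 equal parts, blocks of about 100 kb and windows of about 1 Mb. Intervals are exact 95% ones (Poisson, Clopper-Pearson, binomial order statistics for medians) and cover counting error only. No test was run. Functions were tested on simulated lists. Alternatives changed the score limit, width, merging, block size and the borders of arms. Named features were the 10 best peaks of chromosome II, the 3 best and the widest of each part, blocks with 20 or more peaks, both ends, the 5 longest gaps and runs of 5 or more peaks. Members and rules were chosen with earlier results of these data known. Python 3.11.15, numpy 2.4.6, scipy 1.17.1, pandas 2.3.3 and matplotlib 3.10.9 were used.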

Additional observations from a re-analysis of the deposited data

How the results depend on the processing

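Among the recomputed values, 43 stayed within the exact 95% interval of the value reported and 31 moved outside it. This count leaves out the interval of the recomputed value itself. The density ratio in the best-scoring 10% counted as moved, though its interval (1.05 to 1.50) includes the reported 1.16. The left arm stayed the sparsest part in all alternatives run. The ratio of chromosome II to the other autosomes ranged from 1.01 to 1.27, and its interval without chromosome V (0.957 to 1.07) includes 1. The density ratio was 1.26 in the best-scoring 10% of the list, 1.10 without peaks narrower than 200 bp, 1.27 without chromosome III and 1.01 without V. The left arm's share was 20.7% in the better-scoring 50%, with an interval that includes the reported share. In the best-scoring 10% it was 16.0% (10.7 to 22.5), an interval below the reported share. There the centre had 46.6% (38.8 to 54.6) and the right arm 37.4% (29.98 to 45.3). Both intervals include the reported shares of these parts. The last 1 Mb had 1.41 times the density of the chromosome in the best-scoring 10% (0.801 to 2.25), an interval that includes 1 and the reported 1.05. That ratio was 2.35 for the last 100 kb. When the middle 50% of the span was the centre, the left arm had 0.505 times the density of the rest, against 0.599 with equal parts. Blocks with at least 200 peaks per Mb made up 3.95% at 200 kb and 3.23% at 500 kb. Median width, median distance and the share of distances under 5 kb were 392.5 bp, 9365.5 bp and 36.4% in the better-scoring 50%; 631 bp, 55962 bp and 11.7% in the best-scoring 10%; 330.0 bp, 5111 bp and 49.3% at a q-value of at most 0.001; 339.5 bp, 5472 bp and 47.8% without peaks narrower than 200 bp; and 320.0 bp, 7001 bp and 38.9% with peaks merged over at most 1000 bases. Leaving out or merging peaks lengthens distances by construction, and leaving out peaks narrower than 200 bp raises the median width by construction. A merged peak also counts the bases between its members in its width. Better-scoring peaks of chromosome II were in general wider (Spearman's rho of 0.81). The cause of the remaining changes was not tested. No paired analysis was possible because single libraries have no values in the combined list, and leaving out a replicate was not run either. Missing tag counts limit every value.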
